A study of Mus musculus with 18 samples.

Results

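The comparison set the stem cell enriched fraction of the mouse mammary gland (MaSC) against its myoepithelial fraction (MYO). Members were taken by sample label: RNA samples MaSC1 to MaSC3 and MYO1 to MYO3, each hybridised to the Affymetrix arrays MOE430 chip A and chip B. That gave 12 of the 18 arrays and 6 of the 9 RNA samples, with 6 MaSC arrays and 6 MYO arrays. Per the labels, MaSC cells came from freshly dissociated tissue by negative magnetic selection followed by flow sorting. Stem cells were scored by transplantation in vivo, and 1 stem cell was expected per 50 to 100 cells of the fraction, so most cells in it were not stem cells by that assay. Each MaSC RNA sample came from 2000 to 4000 cells. The MYO cells were also enriched with antibody-coated beads and then sorted, to a stated purity of about 94 percent, and are described as close to the stem cells in surface phenotype but poor in them. Each MYO RNA sample came from 3000 to 24000 cells. The recorded RNA concentration was lowest in MaSC3 among the MaSC samples and in MYO3 among the MYO samples. It was higher in MYO1 and MYO2 than in every MaSC sample, and its part in the differences was not tested. No transgene, deletion or treatment is stated for either fraction, and the sources used here do not give mouse strain, age or whether animals were pooled.

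The mammary epithelium is a bilayer. Luminal cells line the duct, carry keratins of simple epithelia (Krt8, Krt18, Krt19) and, in alveoli, make milk. Myoepithelial cells lie beneath them on the basement membrane, carry Krt5 and Krt14, and contract through smooth muscle actin when oxytocin reaches them. In the mouse, cells that regenerate a ductal tree after transplantation sort with the basal cells. MaSC and MYO were separated by surface antigens and not by position. The sources used here do not state the layer of the MaSC cells that were not stem cells.

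The signals were noisy, and MaSC1 stood apart. Across probe sets, log2 signals of MaSC1 correlated with those of the other 5 samples at r = 0.577 to 0.62 on chip A, while the other 5 correlated with each other at 0.665 to 0.785. On chip B these ranges were 0.389 to 0.407 and 0.431 to 0.581. MaSC2 and MaSC3 correlated at 0.778 on chip A, inside the 0.682 to 0.785 found between these MaSC samples and the MYO samples, and the 3 MYO samples correlated with each other at 0.665 to 0.741. Samples of different fractions were as alike as samples of the same fraction. Values without MaSC1 are therefore also given for the described lists that moved by more than 0.2 and the described genes that moved by more than 0.4 without it. Chip A was scanned on 2 days, with MaSC1, MaSC2, MYO1 and MYO3 on day 1 and MaSC3 and MYO2 on day 2, so a block for scan day leaves chip A differences as they are. Chip B was scanned on 3 days, with MaSC1, MYO1 and MYO2 on day 1. MaSC2 and MYO3 were scanned on day 2 and MaSC3 alone on day 3. On chip A, fluidics station 1 ran MaSC1, MaSC2 and MYO3, and station 2 ran MaSC3, MYO1 and MYO2. On chip B, station 1 ran MaSC1 and MYO2, station 2 ran MaSC2, MYO1 and MYO3, and none is recorded for MaSC3. Station was thus uneven between the fractions on chip A, and its part in the differences was not tested. The labels state biological replication for another fraction of the series only, so the p-values may measure technical spread alone. Differences below are MaSC minus MYO on the log2(signal + 150) scale, which understates changes of dim genes. The "±" after a difference is its moderated standard error from limma, for 3 samples per fraction. It draws on the spread of other probe sets of similar signal as well as the gene's own, so it is not the scatter of the listed signals. The same holds for the 95% intervals. In bulk RNA, fewer cells of a type and less RNA per cell cannot be told apart.

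No gene separated the stem cell enriched fraction from the myoepithelial fraction after adjustment for the number of probe sets tested. In limma, 0 of the 18263 chip A probe sets and 0 of the 19906 chip B probe sets had a Benjamini-Hochberg adjusted p under 0.05, so the share called was 0.0% in each direction. The smallest adjusted p was 0.999 on chip A and 1.0 on chip B. At an unadjusted p under 0.05 there were 604 probe sets on chip A (3.31%), 266 of them higher and 338 lower in MaSC. Chip B had 715 (3.59%), with 364 higher and 351 lower. An even spread of p-values would put 913 probe sets of chip A and 995 of chip B in that bin. Without MaSC1 the calls stayed at 0, and the counts at an unadjusted p under 0.05 were 1004 on chip A and 850 on chip B.

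**Figure D1:**
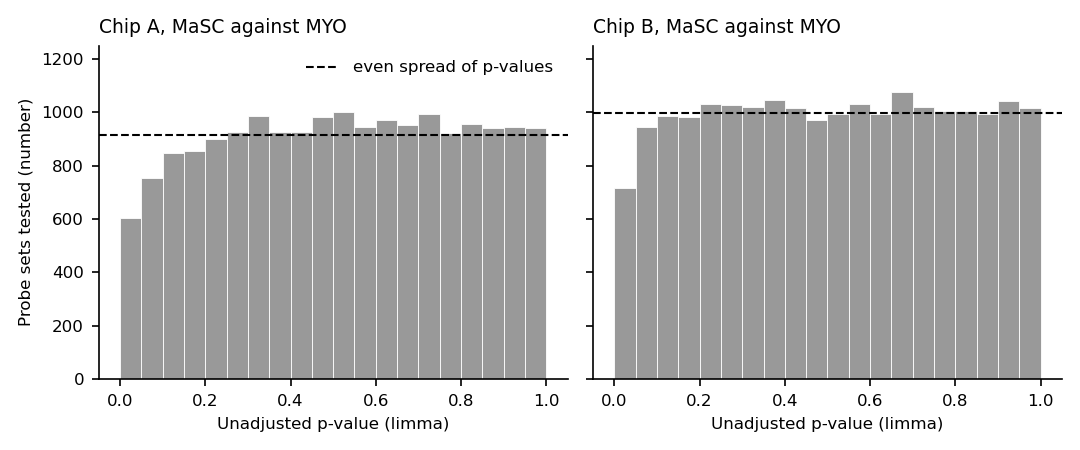
Number of probe sets tested (vertical axis) by unadjusted limma p-value for MaSC against MYO (horizontal axis, bins of 0.05), on chip A (left) and chip B (right). The dashed line marks an even spread, and the lowest bin holds 604 (chip A) and 715 (chip B), both under that line.

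The 2 fractions were not shown to be alike either, since the intervals were wide. Taking 1 probe set per gene, 16468 genes were tested, 10744 on chip A and 5724 on chip B. The median 95% interval of a gene reached 1.48 either side of its difference, and the interval lay within 1 of 0 (a 2-fold change at most) for 434 genes (2.64%). On chip A the brightest probe sets, taken as a group, had the narrowest median interval. Some of the very brightest had wide ones, such as Acta2 with a standard error of 0.97. In the dimmest 3653 probe sets of chip A the median half-width was 1.6, and in the brightest 3653 it was 0.932, where 16.9% of probe sets had an interval within 1 of 0. In 5 equal groups by rising signal, the half-widths on chip B were 1.55, 1.88, 1.82, 1.51 and 1.15, so the dimmest probe sets there were not the least precise, and 1.28% of the brightest had an interval within 1 of 0. Over all genes the median difference was -0.02 and 8059 genes (48.9%) lay above 0. The 3 MaSC signals lay wholly above the 3 MYO signals for 658 genes (4.0%) and wholly below them for 684 genes (4.15%). These shares are the background against which each gene group below is read. An unadjusted p under 0.05 was found for 267 genes higher (1.62%) and 294 genes lower in MaSC (1.79%).

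Lgals3 was the gene with the smallest p among those higher in MaSC. It encodes galectin-3, a lectin that binds beta-galactosides at the cell surface and inside cells. Its signal was 4884, 7598 and 9971 in MaSC1 to MaSC3, against 695, 1179 and 3204 in MYO1 to MYO3. Every MaSC sample was above every MYO sample, and the difference was 2.24 ± 0.50 (4.71-fold, 95% interval 1.23 to 3.25, limma adjusted p = 0.999). Without MaSC1 it was 2.51, and it was 1.89 within scan day 1 and 2.93 within scan day 2. Fam25c had signals of 3426, 2684 and 5416 in MaSC against 123, 1452 and 178 in MYO, a difference of 2.87 ± 0.83. Abcf2, an ATPase of the ABC family, had 2753, 2082 and 1737 in MaSC against 169, 258 and 122 in MYO, a difference of 2.81 ± 0.75. MYO3 came nearest to the MaSC range for Lgals3 and MYO2 for Fam25c, while all MYO signals of Abcf2 were below the filter of 300.

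The other 12 leading genes higher in MaSC had varied roles. Slc26a1, a sulfate transporter, gave 603, 608 and 712 in MaSC against 45, 65 and 87 in MYO. Mars2, the mitochondrial methionyl-tRNA synthetase, gave 1015, 923 and 993 in MaSC against 182, 24 and 62 in MYO. The MaSC samples of both genes were close to each other, and all their MYO signals were below 300. Like Snap25, Spaca1, Dbx2 and H2ap below, both passed the filter through their MaSC samples alone. Renbp, which interconverts N-acetylglucosamine and N-acetylmannosamine, gave 5268, 1935 and 3563 in MaSC against 1322, 235 and 729 in MYO. Galnt1, which starts mucin-type O-glycosylation, gave 3829, 2483 and 2292 in MaSC against 564, 886 and 247 in MYO. Alas1, the first enzyme of heme synthesis, gave 3303, 3007 and 2456 in MaSC against 262, 219 and 2102 in MYO. MYO3 was close to the MaSC samples for Alas1, and a second probe set of that gene overlapped between the fractions (0.50 ± 0.81). Snap25, a SNARE of vesicle fusion, the BRCA2 partner Bccip, the prenyl-protein protease Rce1, the centrosomal gene Cep126, the homeobox gene Dbx2, Spaca1 and H2ap completed the set, with differences from 1.57 for Bccip to 2.43 for Snap25. Without MaSC1 the difference was 1.71 for Snap25 and 2.54 for Dbx2. All 15 had an adjusted p of 0.999 or above, and none was called.

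**Figure D2:**
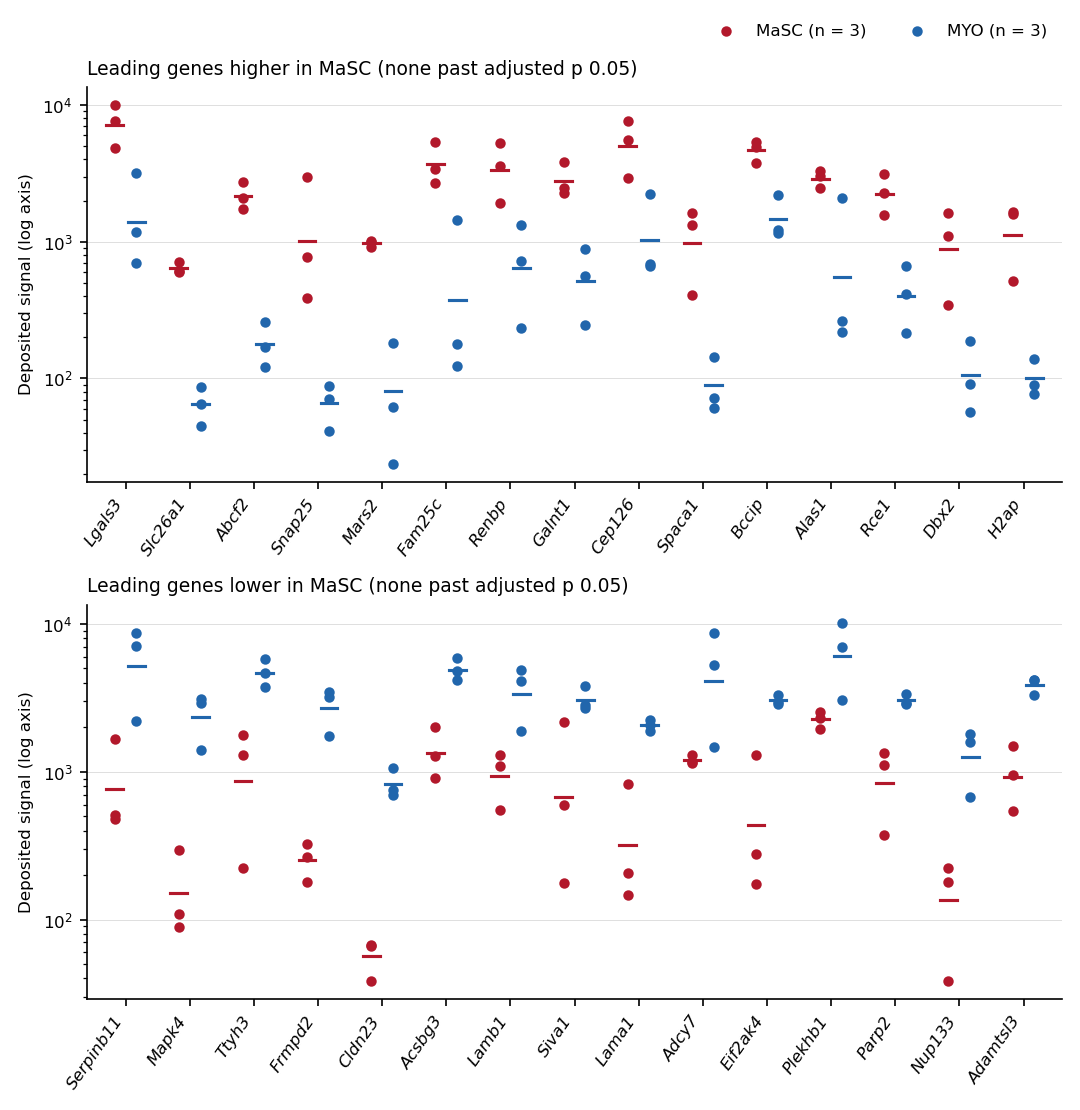
Deposited signal of the 15 leading genes in each direction (log vertical axis), with 3 MaSC samples in red to the left and 3 MYO samples in blue to the right of each gene, and a bar at the mean on the log2(signal + 150) scale. The samples of the fractions do not overlap, which the choice of the genes required, and Lgals3 runs from 4884 to 9971 in MaSC against 695 to 3204 in MYO.

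Serpinb11 led the genes lower in MaSC. It is a serpin of the intracellular clade B. Its signal was 509, 476 and 1677 in MaSC, against 8644, 7117 and 2199 in MYO. MaSC3 and MYO3 were close to each other, and the other 4 samples were far apart. The difference was -2.55 ± 0.57 (95% interval -3.72 to -1.38, limma adjusted p = 0.999), and it was -2.31 without MaSC1, -2.82 within scan day 1 and -1.99 within scan day 2. Mapk4, an atypical MAP kinase, had 294, 89 and 109 in MaSC against 3084, 1396 and 2906 in MYO, a difference of -3.04 ± 0.90. Frmpd2, a protein with FERM and PDZ domains, had 323, 179 and 265 in MaSC against 1746, 3223 and 3467 in MYO (-2.83 ± 0.88). For both, the MaSC signals were around or under the filter of 300. Mapk4 passed the filter through its MYO samples alone.

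The set lower in MaSC held 2 laminin chains, which are structural subunits of the basement membrane. Lama1, the laminin alpha 1 chain, had 208, 146 and 828 in MaSC against 2084, 2233 and 1888 in MYO, a difference of -2.24 ± 0.73. Lamb1, the beta 1 chain, had 555, 1102 and 1297 in MaSC against 4139, 4876 and 1898 in MYO, a difference of -1.70 ± 0.55. A second chip A probe set of Lamb1 gave -1.31 ± 0.77 without overlap, and a chip B probe set gave 0.12 ± 0.75. Adamtsl3, a matrix protein related to the ADAMTS proteases, had 957, 1489 and 540 in MaSC against 4145, 4200 and 3282 in MYO (-1.89 ± 0.65). Cldn23, a claudin of tight junctions, had 67, 38 and 66 in MaSC against 1061, 697 and 758 in MYO. Like Nup133 below, it passed the filter through its MYO samples alone. The remaining 8 were Ttyh3, Acsbg3, Siva1, Adcy7, Eif2ak4 (the amino acid sensing kinase GCN2), Plekhb1, Parp2 and Nup133, with differences from -2.45 for Eif2ak4 to -1.36 for Plekhb1. Without MaSC1 the difference was -1.29 for Siva1, -2.71 for Ttyh3, -2.02 for Eif2ak4 and -1.22 for Parp2. Other probe sets of Nup133, a nuclear pore subunit, lay between -0.57 and -0.26 and overlapped. None of the 15 was called.

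Contractile genes of myoepithelial cells gave signal in both fractions. Acta2, smooth muscle actin, had signals of 307350, 251680 and 529430 in MaSC against 333780, 473900 and 465960 in MYO. Myh11, smooth muscle myosin heavy chain, had 8482, 7656 and 14609 in MaSC against 5586, 11016 and 13363 in MYO. The samples of both genes were interleaved. The difference for Myh11 was 0.07 ± 0.41 with a 95% interval of -0.78 to 0.91, so a 2-fold change either way lay outside it. For Acta2 it was -0.28 ± 0.97, with an interval of -2.25 to 1.69 that leaves a 4-fold change possible. Of the 22 contractile genes tested, 11 lay above 0, none was free of overlap, and 4 had an interval within 1 of 0. Their median difference was -0.10, and 0.14 without MaSC1, against -0.02 over all genes. Lmod1, an actin nucleator of smooth muscle, was the farthest from 0, with 150, 1107 and 1196 in MaSC against 2594, 1009 and 1303 in MYO (-1.06 ± 0.73). MaSC1 alone was low, the other 5 samples overlapped, and the difference was -0.36 without MaSC1.

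The receptors and regulators of contraction gave no common direction, with 9 of 15 above 0 and a median of 0.09. Rgs2, which damps signalling from Gq-coupled receptors such as the oxytocin receptor, had 4399, 2020 and 5281 in MaSC against 41306, 11528 and 2607 in MYO (-1.55 ± 0.58). MYO3 was below 2 of the 3 MaSC samples. A probe set of Rgs2 on chip B had 16285, 11643 and 28378 in MaSC against 148760, 62027 and 28741 in MYO, a difference of -1.87 ± 0.54 in which MYO3 and MaSC3 were nearly level. All 4 Rgs2 probe sets lay below 0, from -1.87 to -0.53.

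Basal keratins and adhesion genes were interleaved for the most part. Krt5 had 11421, 30165 and 50567 in MaSC against 19242, 41731 and 30792 in MYO (-0.17 ± 0.49, 95% interval -1.16 to 0.83, and 0.42 without MaSC1). Krt14 had 41945, 39016 and 33548 in MaSC against 32049, 68139 and 22252 in MYO (0.06 ± 0.47, 95% interval -0.91 to 1.02). Krt17, another keratin of basal cells, differed by 0.38 ± 0.41 and Itga6, the laminin-binding integrin subunit used to sort basal cells, by -0.36 ± 0.42. Of the 20 genes tested, 8 lay above 0, with a median of -0.21, and of -0.06 without MaSC1. Krt6a, a keratin of stressed and progenitor epithelium, was the 1 gene without overlap, with 2113, 2032 and 2500 in MaSC against 1301, 727 and 1493 in MYO (0.88 ± 0.56). Over all genes 4.0% were without overlap and higher.

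**Figure D3:**
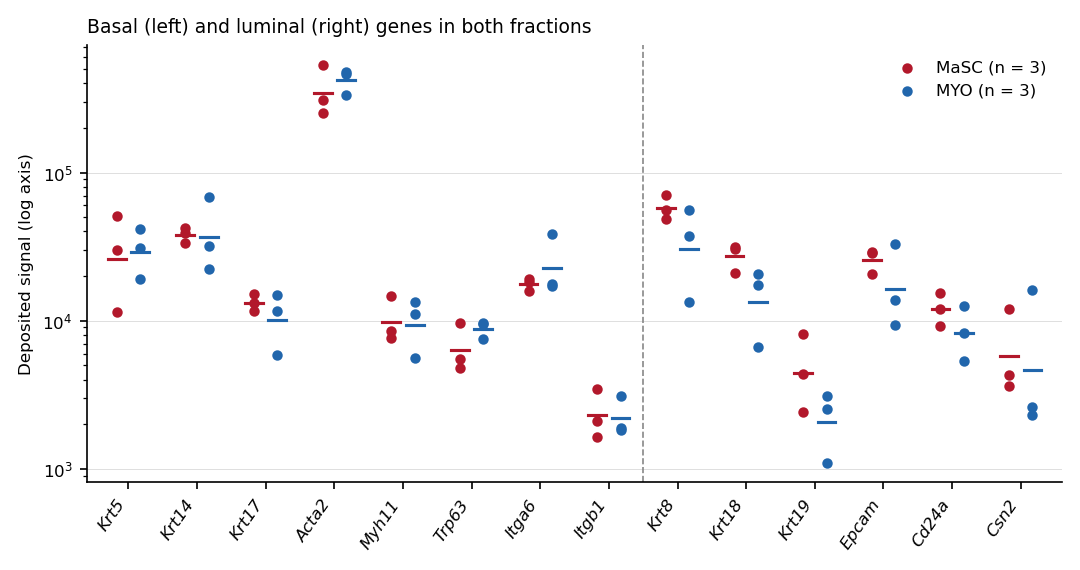
Deposited signal (log vertical axis) of basal genes, left of the dashed line, and luminal or milk genes, right of it, with 3 MaSC samples in red to the left and 3 MYO samples in blue to the right of each gene and a bar at the mean on the log2(signal + 150) scale. Krt18 is the 1 gene of the 14 whose samples do not overlap, at 21121 to 31625 in MaSC against 6620 to 20631 in MYO.

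Basal transcription factors lay mostly lower in MaSC, with 6 of 21 above 0 and a median of -0.30. That median was -0.02 when the brightest probe set on either chip stood for each gene. Trp63, the p63 factor that basal epithelium depends on, had 5510, 4803 and 9595 in MaSC against 7468, 9526 and 9606 in MYO (-0.47 ± 0.40, 95% interval -1.28 to 0.35). Foxp1, a forkhead repressor, had 4598, 4033 and 7157 in MaSC against 14468, 9638 and 10084 in MYO (-1.11 ± 0.40), with every MaSC sample below every MYO sample. Of its 8 probe sets, 6 lay below 0 and 2 above, from -1.11 to 0.73. Tbx2, a T-box repressor, had 427, 162 and 46 in MaSC against 1697, 501 and 1156 in MYO (-1.83 ± 0.80, and -2.23 without MaSC1). Yap1, the Hippo pathway coactivator, differed by -0.21 ± 0.41. Foxp1 and Tbx2 were the 2 of 21 without overlap, where 4.15% of all genes were without overlap and lower.

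Basement membrane and secreted matrix genes lay mostly below 0. Of 26 genes tested, 4 lay above 0, where 48.9% of all genes did, and the median was -0.50, or -0.48 without MaSC1. Against the background of 4.15%, 3 of the 26 were without overlap and lower, Lama1 and Lamb1 among them. Crispld2, a secreted protein, had 200160, 144750 and 90906 in MaSC against 598660, 500230 and 127320 in MYO (-1.28 ± 0.85). MYO3 lay inside the MaSC range. Ccn2, the connective tissue growth factor, had 62192, 36607 and 231000 in MaSC against 178910, 151810 and 183450 in MYO (-1.08 ± 0.68), and here MaSC3 was the highest of all 6. Postn, periostin, went the other way at 0.73 ± 0.55 (1.18 without MaSC1), with 35788, 66724 and 123510 in MaSC against 24151, 30213 and 87357 in MYO. By sample, the list's median deviation from the mean of the 6 arrays was -0.34, -0.51 and 0.04 in MaSC, against 0.16, 0.77 and -0.01 in MYO. MaSC3 and MYO3 were nearly level, and the other 4 samples were apart. MaSC1, MaSC2 and MYO3, which shared fluidics station 1 on chip A, were the samples below 0. On chip A the list's median was -0.38 within scan day 1 and -0.46 within scan day 2.

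Fibroblast and nerve sheath markers moved with the matrix list. Fibroblast markers had a median of -0.37, with 7 of 18 above 0 and summed signals of 27087 to 51253 in MaSC against 33376 to 89850 in MYO. Of the 19 on the arrays, 14 to 18 reached a signal of 300 in a MaSC sample and 15 to 17 in a MYO sample, where 70.0% to 75.6% of all chip A probe sets reached 300 in MaSC and 71.2% to 72.8% in MYO. Col3a1, a fibrillar collagen chain, had 6755, 1011 and 1680 in MaSC against 6659, 22532 and 1742 in MYO (-1.44 ± 0.63, and -2.19 without MaSC1). MYO2 was high, and the other 5 samples overlapped. Dcn, decorin, had 7054, 5372 and 8124 in MaSC against 11538, 15400 and 4690 in MYO (-0.47 ± 0.43). Schwann cell and nerve markers had a median of -0.40, with 3 of 11 above 0 and summed signals of 31934 to 33585 in MaSC against 39940 to 67152 in MYO. Mbp, myelin basic protein, had 4485, 3576 and 2709 in MaSC against 4634, 17052 and 5286 in MYO (-1.06 ± 0.46), again with MYO2 the highest. MYO2 was also the highest of the 6 in the matrix list. The part of fibroblast or nerve carry-over in the matrix difference was not tested.

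Luminal keratins and junction genes lay above 0 in most cases, with 15 of 20 above 0 and a median of 0.50, or 0.59 without MaSC1. Krt18 had 30351, 31625 and 21121 in MaSC against 6620, 17387 and 20631 in MYO (1.02 ± 0.44, 95% interval 0.13 to 1.91). MaSC3 and MYO3 were nearly level, though the fractions did not overlap. Krt8, its partner in the keratin filament, had 48622, 70023 and 55581 in MaSC against 13356, 55682 and 37213 in MYO (0.92 ± 0.50, 95% interval -0.11 to 1.95). All 3 Krt8 probe sets gave 0.89 to 0.93. Krt19 had 2400, 4334 and 8098 in MaSC against 1101, 2545 and 3085 in MYO (1.04 ± 0.50, and 1.46 without MaSC1), and MaSC1 lay inside the MYO range. Epcam, an adhesion molecule that is brighter on luminal cells, had 20737, 28846 and 28949 in MaSC against 9375, 33135 and 13728 in MYO (0.67 ± 0.44), with MYO2 the highest of the 6. The list's median deviation by sample was -0.03, 0.43 and 0.31 in MaSC, against -0.56, -0.26 and 0.28 in MYO. MYO1 and MYO2 were low, and MYO3 lay above MaSC1. The chip A median was 0.18 within scan day 1 and 0.36 within scan day 2. One gene of the 20, Krt18, was without overlap and higher, against 4.0% of all genes.

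**Figure D4:**
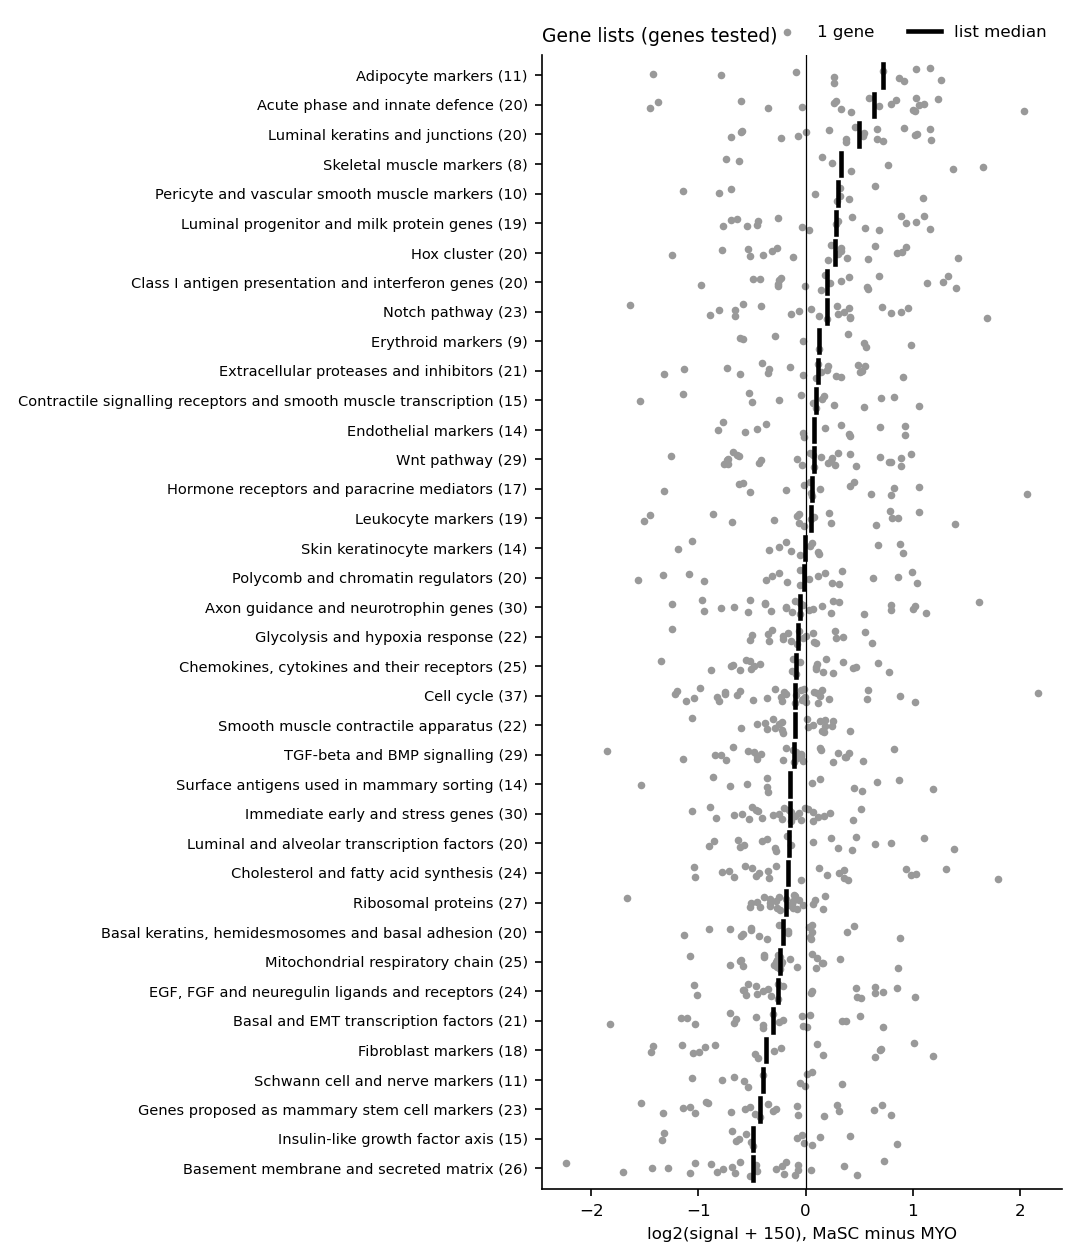
Differences on the log2(signal + 150) scale, MaSC minus MYO (horizontal axis), for 38 gene lists ordered by median, with a grey point per gene, a black bar at each list's median and the number of genes tested in brackets. Basement membrane and secreted matrix genes are at the bottom at -0.50, luminal keratins and junctions near the top at 0.50, and the genes of every list spread over both sides of 0.

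Acute phase and innate defence genes, several of them known products of luminal progenitors, also lay mostly above 0, with 15 of 20 and a median of 0.64 (0.60 without MaSC1). On chip A it was 0.58 within scan day 1 and 0.51 within scan day 2. Pglyrp1, a peptidoglycan recognition protein, had 1978, 697 and 1094 in MaSC against 231, 255 and 58 in MYO (2.04 ± 0.79). It passed the filter through its MaSC samples alone. Cd14, the endotoxin co-receptor, had 4582, 3138 and 10484 in MaSC against 599, 2424 and 8424 in MYO (1.11 ± 0.59). The members of highest signal overlapped between the fractions, with Lcn2, lipocalin 2, at -0.04 ± 0.53 (0.67 without MaSC1), Slpi, a leukocyte protease inhibitor, at 0.42 ± 0.49 (0.73 without MaSC1) and Clu, clusterin, at 0.26 ± 0.44. Among the 20, 3 were without overlap and higher and 1 was without overlap and lower, against 4.0% and 4.15% of all genes. Of all genes, 48.9% lay above 0.

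Milk and luminal progenitor genes had 11 of 19 above 0 and a median of 0.28, which was -0.06 without MaSC1, 0.80 within scan day 1 and -0.32 within scan day 2. Csn2, beta-casein, had 12038, 3646 and 4320 in MaSC against 2301, 16144 and 2624 in MYO (0.30 ± 0.54, and -0.22 without MaSC1), so 1 sample of each fraction was high. Csn3, kappa-casein, had 24813, 16397 and 25274 in MaSC against 5185, 28649 and 9594 in MYO (0.94 ± 0.47), with MYO2 the highest of the 6. A second Csn3 probe set gave -0.36 ± 0.77. Plin2, which coats lipid droplets, had 21342, 70632 and 39667 in MaSC against 4992, 24653 and 42033 in MYO (1.16 ± 0.56, and 1.60 without MaSC1). Luminal transcription factors had 9 of 20 above 0 and a median of -0.16. Foxa1, a pioneer factor of hormone-sensing luminal cells, had 944, 1944 and 1824 in MaSC against 200, 549 and 877 in MYO (1.39 ± 0.73), without overlap. Bhlhe40, a basic helix-loop-helix repressor, had 3600, 3962 and 5411 in MaSC against 5854, 8601 and 5634 in MYO (-0.61 ± 0.41), without overlap and lower.

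Hormone receptors and paracrine mediators had 11 of 17 above 0 and a median of 0.06, which was 0.39 without MaSC1. Tnfsf11, the RANK ligand through which progesterone acts on neighbouring cells, had 1064, 571 and 906 in MaSC against 73, 50 and 130 in MYO. Its difference was 2.07 ± 0.72 (95% interval 0.59 to 3.55), and 1.91 without MaSC1. All its MYO samples were below the filter, which Tnfsf11 passed through its MaSC samples alone. Insr, the insulin receptor, had 466, 543 and 226 in MaSC against 1376, 1048 and 1214 in MYO (-1.32 ± 0.76). Insulin-like growth factor axis genes had 4 of 15 above 0 and a median of -0.49, which was -0.13 without MaSC1 and -0.09 with the brightest probe set on either chip. Igfbp5, a binding protein of these growth factors, had 22155, 5009 and 3836 in MaSC against 60313, 40033 and 2888 in MYO (-1.34 ± 0.68, and -2.10 without MaSC1), and MYO3 was the lowest of the 6.

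Genes proposed elsewhere as mammary stem cell markers lay mostly below 0 in the stem cell enriched fraction. Of 23 tested, 6 lay above 0, and the median was -0.43, or -0.42 without MaSC1 and -0.08 with the brightest probe set on either chip. Thy1, a surface glycoprotein of basal cells and fibroblasts, had 1385, 884 and 304 in MaSC against 2091, 2355 and 2970 in MYO (-1.53 ± 0.62). Bmi1, a Polycomb protein of stem cell self-renewal, had 208, 720 and 1575 in MaSC against 1941, 1521 and 2309 in MYO (-1.33 ± 0.68, and -0.74 without MaSC1), and MaSC3 lay inside the MYO range. Dll1, a Notch ligand, had 5178, 6430 and 5363 in MaSC against 2790, 3960 and 3492 in MYO (0.71 ± 0.41, 95% interval -0.13 to 1.55), and was the 1 gene of the list without overlap and higher, while 2 were without overlap and lower, Thy1 and Lgr5. Over all genes 4.0% were without overlap and higher and 4.15% without overlap and lower. Lgr4, a receptor for R-spondins, differed by -0.43 ± 0.47 and Cd44, the hyaluronan receptor, by -0.35 ± 0.42. Of the sort antigens, 7 of 14 lay above 0, with a median of -0.14 (0.09 without MaSC1), and Thy1 was the 1 without overlap. Cd24a, dimmer on basal than on luminal cells in mouse sorts, had 9184, 11985 and 15403 in MaSC against 8192, 12658 and 5371 in MYO (0.53 ± 0.41).

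Among the signalling pathways no list had more than 1 gene at an unadjusted p under 0.05 in a given direction, apart from TGF-beta and BMP signalling with 2 lower. Notch genes had 14 of 23 above 0 and a median of 0.20. Heyl, a Notch target repressor, had 3224, 1741 and 1081 in MaSC against 1995, 55 and 376 in MYO (1.70 ± 0.79), and its other probe set gave 0.95 ± 0.74. Numbl, an adaptor that restrains Notch, had 158, 259 and 141 in MaSC against 620, 1287 and 853 in MYO (-1.64 ± 0.76). It passed the filter through its MYO samples alone. Wnt genes had 17 of 29 above 0 and a median of 0.08, and none was without overlap. Ctnnb1, beta-catenin, differed by -0.08 ± 0.40, with an interval of -0.90 to 0.74 that a 2-fold change lay outside. A second Ctnnb1 probe set had 302, 354 and 440 in MaSC against 66, 79 and 65 in MYO. Its difference was 1.22 ± 0.63 without overlap, so the 2 probe sets differed in sign. The difference between them was not tested. The second passed the filter through its MaSC samples alone.

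TGF-beta and BMP genes had 9 of 29 above 0 and a median of -0.11. Ltbp3, which holds latent TGF-beta in the matrix, had 10052, 9544 and 13200 in MaSC against 24352, 20899 and 14567 in MYO (-0.84 ± 0.39). Tgfbr3, the betaglycan coreceptor, had 340, 325 and 210 in MaSC against 1536, 1173 and 1613 in MYO on its chip A probe set (-1.85 ± 0.76). Its chip B probe set had 16067, 29596 and 38512 in MaSC against 19386, 30664 and 21864 in MYO (0.16 ± 0.47). The 2 probe sets of Tgfbr3 thus differed in sign, and the difference between them was not tested. EGF and FGF genes had 10 of 24 above 0 and a median of -0.26, which was 0.04 without MaSC1. Errfi1, a feedback inhibitor of EGF receptor signalling, had 134570, 66964 and 186780 in MaSC against 383060, 197020 and 195720 in MYO (-1.04 ± 0.73), with MaSC3 close to MYO2 and MYO3. A second probe set of Errfi1 gave 0.05 ± 0.49.

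Axon guidance genes had 13 of 30 above 0 and a median of -0.05, which was 0.26 without MaSC1. Efnb2, ephrin-B2, had 1715, 826 and 863 in MaSC against 399, 194 and 188 in MYO (1.62 ± 0.78), but its second probe set gave -0.50 ± 0.82. Chemokines and cytokines had 11 of 25 above 0 and a median of -0.09. Cxcl12, the ligand of Cxcr4, had 1098, 1451 and 2176 in MaSC against 4215, 5822 and 2783 in MYO (-1.35 ± 0.49), while another chip A probe set gave 0.67 ± 0.60 and a chip B probe set -0.39 ± 0.91. Of the 3 probe sets of Cxcl12, 2 lay below 0 and 1 above. Il17b, a cytokine of the interleukin-17 family, differed by -0.68 ± 0.44.

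Cell cycle genes had 12 of 37 above 0 and a median of -0.10. Cdk6, a G1 kinase, had 3335, 4329 and 1690 in MaSC against 502, 1140 and 222 in MYO (2.17 ± 0.80), and its second probe set gave -0.34 ± 0.96. Rrm2, the ribonucleotide reductase subunit made in S phase, had 1205, 878 and 1376 in MaSC against 3914, 2149 and 2177 in MYO (-1.12 ± 0.54). These were the only genes of the 37 without overlap, against 4.0% higher and 4.15% lower over all genes. Chromatin regulators had 10 of 20 above 0 and a median of -0.01. Phc1, a Polycomb subunit, had 382, 519 and 270 in MaSC against 1332, 1055 and 2025 in MYO (-1.57 ± 0.74). Hox genes had 12 of 20 above 0 and a median of 0.27, which was -0.24 without MaSC1.

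Stress and metabolic genes spread widely within both fractions. Hspa1b, the inducible HSP70, had 415770, 117430 and 40902 in MaSC against 177480, 290190 and 42274 in MYO (-0.04 ± 0.78, and -0.90 without MaSC1). Replicate 3 was low in both fractions for this gene. Btg2, an immediate early antiproliferative gene, had 20716, 7100 and 10007 in MaSC against 38796, 29680 and 11758 in MYO (-1.06 ± 0.46, and -1.48 without MaSC1). Immediate early and stress genes had 8 of 30 above 0 and a median of -0.15, which was -0.49 without MaSC1, 0.29 within scan day 1 and -1.34 within scan day 2. Glycolysis and hypoxia genes had a median of -0.07, which was 0.31 without MaSC1, and Pgk1, a glycolytic kinase, had 133480, 296720 and 390440 in MaSC against 186350, 261150 and 419140 in MYO (-0.13 ± 0.85, and 0.32 without MaSC1). Vegfa, the angiogenic growth factor, was tight within the fractions, with 5700, 5612 and 5970 in MaSC against 3702, 3107 and 4361 in MYO (0.62 ± 0.41). A second Vegfa probe set gave -0.33 ± 0.44.

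Ribosomal protein genes had 4 of 27 above 0 and a median of -0.18, or -0.11 without MaSC1. Rps2, Rps3 and Rps7, subunits of the small ribosomal particle, differed by -0.25 ± 0.72, -0.11 ± 0.66 and -0.10 ± 0.61. Rpl37 was the 1 without overlap, with 316, 4221 and 3207 in MaSC against 7250, 5747 and 4829 in MYO (-1.66 ± 0.57), and it was -0.65 without MaSC1, whose signal was far below the rest. The share without overlap and lower was 4.15% over all genes. Respiratory chain genes had 7 of 25 above 0 and a median of -0.24, which was 0.12 without MaSC1. Cholesterol and fatty acid genes had 11 of 24 above 0 and a median of -0.16. Class I antigen presentation and interferon genes had 12 of 20 above 0 and a median of 0.20. Psmb9, an immunoproteasome subunit, had 2152, 1214 and 1358 in MaSC against 291, 840 and 539 in MYO (1.33 ± 0.71).

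Markers of cells outside the epithelium gave signals that do not by themselves show such cells, since no detection calls were used and most probe sets reached 300 on every array. Leukocyte markers summed to 16214 to 31872 in MaSC against 16537 to 24122 in MYO, and 14 to 16 of 22 reached a signal of 300 in a MaSC sample against 15 to 17 in a MYO sample, near the shares for all chip A probe sets given above. Their median difference was 0.05, and -0.20 without MaSC1. Endothelial markers summed to 14046 to 24120 in MaSC against 11650 to 20995 in MYO. Of 18, 11 to 12 reached 300 in a MaSC sample against 10 to 12 in a MYO sample. Kdr, the brightest of those tested, had 4187, 2972 and 3035 in MaSC against 4298, 1408 and 4137 in MYO. Pecam1 and Tie1 stayed under 300 in all 6 samples. MaSC1 had the highest sum of the 6 for leukocyte, endothelial, pericyte, erythroid, skin keratinocyte and skeletal muscle markers. Over all chip A probe sets MaSC1 also had the highest median signal of the 6 (967.6) and the largest share at 300 (75.6%). These sums are therefore not particular to such markers. Adipocyte markers had a median of 0.73, which was 0.38 without MaSC1 and 0.27 with the brightest probe set on either chip, and 8 of 11 lay above 0. They summed to 19893 to 42918 in MaSC against 12288 to 38599 in MYO. Fabp4, a fatty acid binding protein of fat and capillaries, had 762, 9626 and 26556 in MaSC against 1713, 720 and 21474 in MYO (0.92 ± 0.84, and 2.30 without MaSC1), so replicate 3 was high in both fractions. The part of these cells in the differences above was not tested.

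Both chips were hybridised with the same RNA, so a difference can be set side by side on the 2 chips. Of 3081 genes with a tested probe set on each chip, 1622 (52.6%) had the same sign on both, with r = 0.0374 (Spearman 0.0457) across genes, which share the RNA samples and are not replicates. Among the 279 genes in the top 20% of signals on both chips, 162 (58.1%) had the same sign, with r = 0.195. In both sets a gene was read by different probe sets on the 2 chips. These values therefore mix the repeat of a difference with disagreement between probe sets. Only the 100 probe sets carried by both chips compare the same probe set, and they were not filtered for signal. Of these, 59 had the same sign, with r = 0.142. Of the 3081 genes, 232 were without overlap on chip A and 241 on chip B. On both chips 3 genes were without overlap and higher, 3 were without overlap and lower, and 11 were without overlap in opposite directions. Within a gene, besides those noted above, at least 1 other probe set had the opposite sign for Krt14, Krt17, Trp63, Yap1, Cd24a, Cd44, Csn2, Dcn, Mbp, Fabp4, Ltbp3, Hspa1b, Pgk1 and Rps3. Those without overlap in the same direction on both chips were Sri, Dzip1 and C920021L13Rik, higher, and Tbrg4, Nudt13 and Fbxl20, lower. These 6 were named after their values were seen, and are fewer than the 11 in opposite directions. Sri, the calcium-binding protein sorcin, had 2515, 2139 and 2649 in MaSC against 1488, 1462 and 1548 in MYO on chip A (0.64 ± 0.51) and 2108, 1708 and 1293 in MaSC against 716, 998 and 307 in MYO on chip B (1.25 ± 0.86). Tbrg4, a regulator of mitochondrial RNA, had 435, 1033 and 1194 in MaSC against 2912, 2058 and 2148 in MYO on chip A (-1.35 ± 0.60) and 411, 2326 and 2647 in MaSC against 3581, 5867 and 5201 in MYO on chip B (-1.65 ± 0.62).

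**Figure D5:**
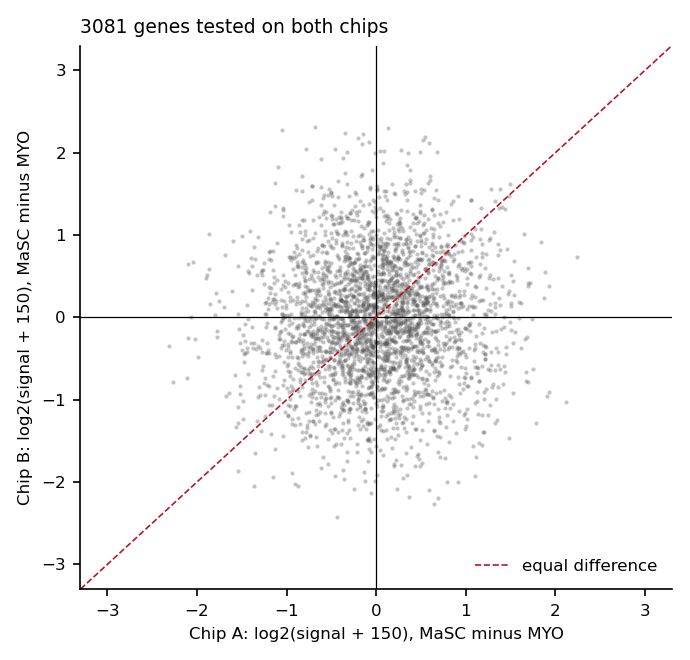
Difference of MaSC minus MYO on the log2(signal + 150) scale for 3081 genes, on chip A (horizontal axis) and chip B (vertical axis), a point per gene. Points gather around 0 with no tilt toward the dashed line of equal difference, and 52.6% of genes have the same sign on both chips.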

How the data were processed

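The authors deposited 1 intensity per probe set and array on a linear scale, made with MAS5 per the submitters' processing notes. The sources used here give no version or target. The trimmed mean signal was 1500 on all arrays, so no further scaling was made.

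Each chip was analysed alone. Probe sets that reached 300 on 3 or more of the 6 arrays were kept, log2(signal + 150) was taken, and MaSC and MYO were compared with limma 3.58.1 in R 4.3.3 (lmFit, eBayes with trend, Benjamini-Hochberg within a chip, threshold 0.05, 95% intervals). Probe sets on both chips were tested on chip A. The script was tested on simulated data. Names came from the platform annotation: 20380 chip A probe sets had 1 symbol, 691 several and 1555 none; chip B had 14661, 245 and 7605. A gene was represented by its brightest chip A probe set, otherwise its brightest chip B one. Named genes were 15 per direction by p among those without overlap, 14 lineage genes, and per list the 3 brightest and the smallest p-values. Members and lists were chosen with earlier results of these data known. The third fraction's arrays entered 1 alternative fit only. Alternatives were the pseudocount (450 or none), the filter (750 or none), normalization, fit, scan day and each sample left out. Coordinates and sequences are not used here.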

Additional observations from a re-analysis of the deposited data

How the results depend on the processing

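With 0 probe sets called, 2 settings gave calls. Array quality weights called 1 probe set higher on chip A (Lgals3, 2.46, limma adjusted p = 0.0278) and 1 lower (a probe set of Nrep, -2.78, adjusted p = 0.0278), and none on chip B. Within chip B scan day 1, which holds MaSC1 alone against MYO1 and MYO2 and assumes that MaSC1 varies as the MYO samples do, 1 was higher and 31 were lower. In some of the lower ones MaSC1 alone was low, as for Sulf2, with 256, 7514 and 6503 in MaSC against 5777, 7076 and 7403 in MYO. In others MaSC2 was low as well, as for Mcm5, with 697, 671 and 1977 against 11460, 4273 and 1626. Other pseudocounts, filters, normalizations and fits, scan day as a block, and each sample left out gave 0 calls per chip and direction. Probe sets at an unadjusted p under 0.05 numbered 374 to 1028 on chip A and 539 to 1334 on chip B over all settings. Within chip A scan day 1 (MaSC1 and MaSC2 against MYO1 and MYO3) 0 were called and 581 had an unadjusted p under 0.05. Within the later scan days of each chip no test was possible. Deviations of same-numbered MaSC and MYO samples from their fraction means correlated at r = 0.126, 0.0802 and 0.0128 on chip A. On chip B these were 0.0662, 0.0802 and 0.0105. Differently numbered samples gave -0.113 to 0.0628 on chip A and -0.0913 to 0.0222 on chip B. With so few samples these values cannot settle whether the numbers pair them. With replicate number as a block the calls were 0, and 761 and 885 probe sets had an unadjusted p under 0.05.

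The 30 leading genes kept their direction in all 564 alternative values, which their choice as genes without overlap largely fixes. The 38 list medians were recomputed only with other pseudocounts, quantile normalization, each sample left out, and the brightest probe set on either chip. In all of these the signs of the basal transcription factor, matrix, luminal junction, innate and stem marker lists were the same. Basal transcription factors came as near 0 as -0.02 and stem markers as -0.08. The signs of the contractile, milk, respiratory chain and Hox lists were not the same throughout. Of the 170 other named genes, 107 had several probe sets, and in 57 another probe set had the opposite sign. Below the brightest 20% of chip A, no interval lay within 1 of 0.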

Other observations

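Skin keratinocyte and skeletal muscle markers gave further values. Lor, loricrin of the cornified envelope, had 20624, 7256 and 9749 in MaSC against 15282, 6454 and 11497 in MYO. Its difference was 0.12 ± 0.43 (moderated SE, 3 samples each), and -0.31 without MaSC1. Ivl and Krt6b stayed under 300 in all 6 samples. Acta1, skeletal actin, had 2867, 1266 and 445 in MaSC against 204, 588 and 159 in MYO (1.66 ± 0.81, and 1.09 without MaSC1), and Tnnc2 stayed under 300 in all 6 samples.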
